A study of Mus musculus with 4 samples.

Results

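The subject is the mouse collagen gene family in single-cell RNA profiles of 4 muscle cell states. Members were all gene symbols of the form Col, a number, the letter a and a number (Col1a1, Col6a3 and so on), which gave 44 of 25804 symbols. The rule used the names alone and no measured value. By chain type, 11 members were fibrillar, 6 were type IV of the basement membrane, 6 were type VI, and 21 were other collagens.

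Collagens are triple helices of 3 alpha chains, each chain encoded by its own gene, and a type forms only when cells supply chains that fit together. Fibrillar collagens (types I, III, V and relatives) build the tensile fibrils of the interstitium, type IV forms the sheet of the basement membrane against which satellite cells lie, and type VI forms beaded filaments beside that sheet. In muscle most interstitial collagen is made by fibroblasts and fibro-adipogenic progenitors, while satellite cells, the Pax7-positive stem cells of muscle, are known to make part of their own niche matrix.

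The study profiled mouse skeletal muscle cells with droplet single-cell RNA sequencing, in which each captured transcript 3′ end is counted once as a unique molecular identifier (UMI). All groups carried the Pax7-nGFP reporter, a nuclear green fluorescent protein driven by Pax7. MPC were myogenic progenitor cells made from the cultured myoblasts of a male mouse of 16 weeks, which spent 2 passages in myoblast medium and then 5 passages in MPC medium with 5 µM forskolin (an adenylyl cyclase activator), 5 µM RepSox (a TGF-beta receptor inhibitor) and 3 µM CHIR (a GSK3 inhibitor). Myoblast was that culture at passage 2 in serum-rich myoblast medium with basic FGF and without the compounds. ASC were activated satellite cells sorted as GFP-positive from 17 tibialis anterior muscles of male and female mice of 18 to 24 weeks, 3 days after injury by cardiotoxin, a myotoxic peptide. The fiSC were freshly isolated satellite cells sorted as GFP-positive from uninjured limb muscles of 3 pooled male mice of 13 weeks. The cultures were not sorted. MPC and myoblast differ in medium and passages as well as in the compounds, so that these cannot be told apart, and ASC and fiSC differ in muscle, age and sex of the mice as well as in injury.

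Each state was 1 library, so no difference has a replicate check and no test was run. Levels are summed UMIs scaled to the library total (CPM, counts per 1e6 UMIs) with exact 95% Poisson intervals, and shares have exact binomial intervals. These intervals cover counting error only. The retained cells and UMIs were 9059 and 134273031 in MPC, 2351 and 54581416 in myoblast, 6448 and 179109303 in ASC, and 2185 and 19975483 in fiSC. As a floor for a count of 0, 3 UMIs over the library total came to 0.0223, 0.0550, 0.0167 and 0.150 CPM in these libraries. The exact 95% interval of a 0 reaches higher, to 0.185 CPM in fiSC. Markers placed 83.8% of MPC, 87.0% of myoblast, 41.3% of ASC and 97.3% of fiSC cells in clusters called myogenic-like, and 47.1% of ASC cells in macrophage-like clusters. Pax7, the marker of the sort, stood at 669.7 CPM in MPC, 1116 in myoblast, 88.0 in ASC and 835 in fiSC. A whole-library level therefore mixes cell types, and a lower level from fewer cells of a type cannot be told apart from less RNA per cell unless the cells are split. Myoblast and MPC shared 164 deposited cell barcodes, against 4 to 27 for any other pair of libraries. Of the retained myoblast cells 143 had a barcode also found in another library, with a median of 47440 UMIs, and without such cells the myoblast level of 8 measured collagens fell by 27.4% to 60.2%. These levels are given both ways, and the other myoblast levels changed by between -10.3% and 5.47%. How these cells came to share barcodes was not tested.

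Of the 44 collagens, 24 reached 10 CPM in at least 1 library and are called measured. All collagens together held 3012 CPM in MPC (3002 to 3021), 1792 CPM in myoblast, 316 CPM in ASC and 2940.5 CPM in fiSC. Fibrillar chains were 25.9% of collagen UMIs in MPC, 31.0% in myoblast, 64.7% in ASC and 51.7% in fiSC. Type VI chains were 15.01% in MPC, 0.964% in myoblast (0.462% without shared barcodes), 1.98% in ASC and 5.46% in fiSC. Type IV chains held 23.8% of collagen UMIs in MPC and in myoblast, 5.33% in ASC and 22.6% in fiSC. MPC had the highest level of 12 of the 24 measured members, myoblast of 2 (Col8a1 and Col24a1), ASC of 0 and fiSC of 10. Because UMIs count 3′ ends once per molecule, levels of different chains are not scaled by transcript length.

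**Figure D1:**
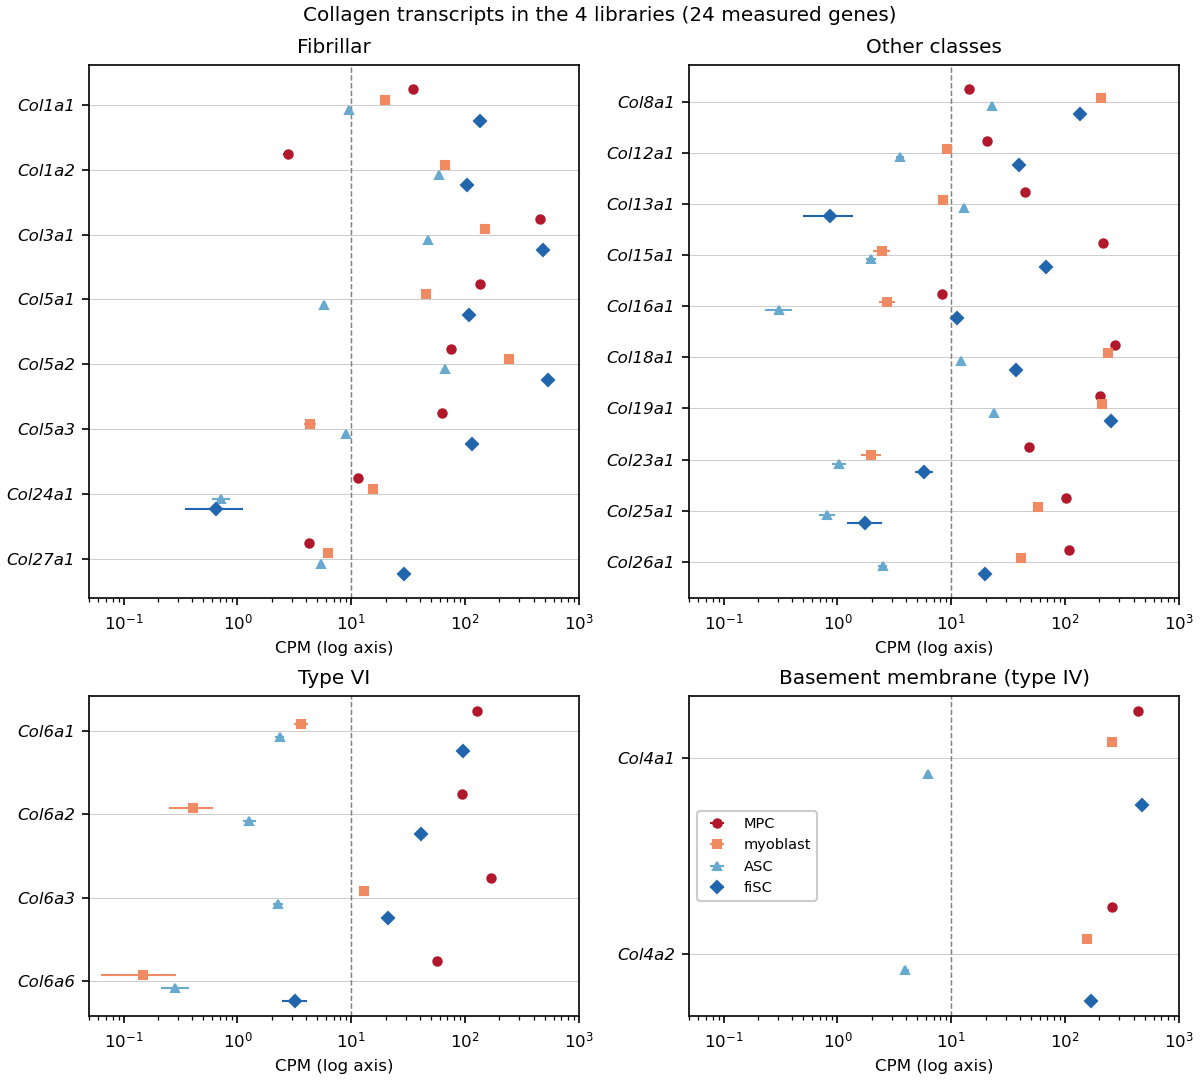
Level of each measured collagen (CPM, log axis) in the MPC, myoblast, ASC and fiSC libraries, with panels by chain class, 1 point per library, bars for exact 95% Poisson intervals and a dashed line at 10 CPM. Col6a3 stands at 170 CPM in MPC and 2.28 CPM in ASC, and Col4a1 at 441 CPM in MPC and 6.19 CPM in ASC.

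The 4 comparisons were described with a size rule, a ratio of 2-fold or more on CPM + 5 where the higher library reaches 10 CPM, and read against the share of all symbols past it. MPC against myoblast sets the compound-treated culture beside its parent culture. Of 22 measured collagens 11 were higher and 3 lower in MPC, while 6.83% of all 9470 measured symbols were higher and 6.42% lower. The median log2 ratio of the collagens was 1.08, against 0.06 for all symbols. Without cells of shared barcodes the counts were 12 higher and 3 lower, Col1a1 being the addition. MPC against fiSC sets the cultured state beside the cells of resting muscle. Of 24 measured collagens 10 were higher and 5 lower, against 27.9% of all symbols higher and 15.8% lower, and the median of 0.35 equalled the 0.35 of all symbols. Myoblast against fiSC gave 3 higher and 11 lower of 21 measured, against 27.7% and 17.8% of all symbols (45.5% either way), with a collagen median of -1.07 and a median of 0.30 over all symbols. Without shared barcodes that count was 3 higher and 14 lower. ASC against fiSC, the comparison of injured with uninjured muscle, gave 1 higher and 18 lower of 20 measured, against 24.6% and 21.0% of all symbols, with a collagen median of -2.89 and a median of 0.08 over all symbols. The last 3 comparisons share the fiSC library.

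**Figure D2:**
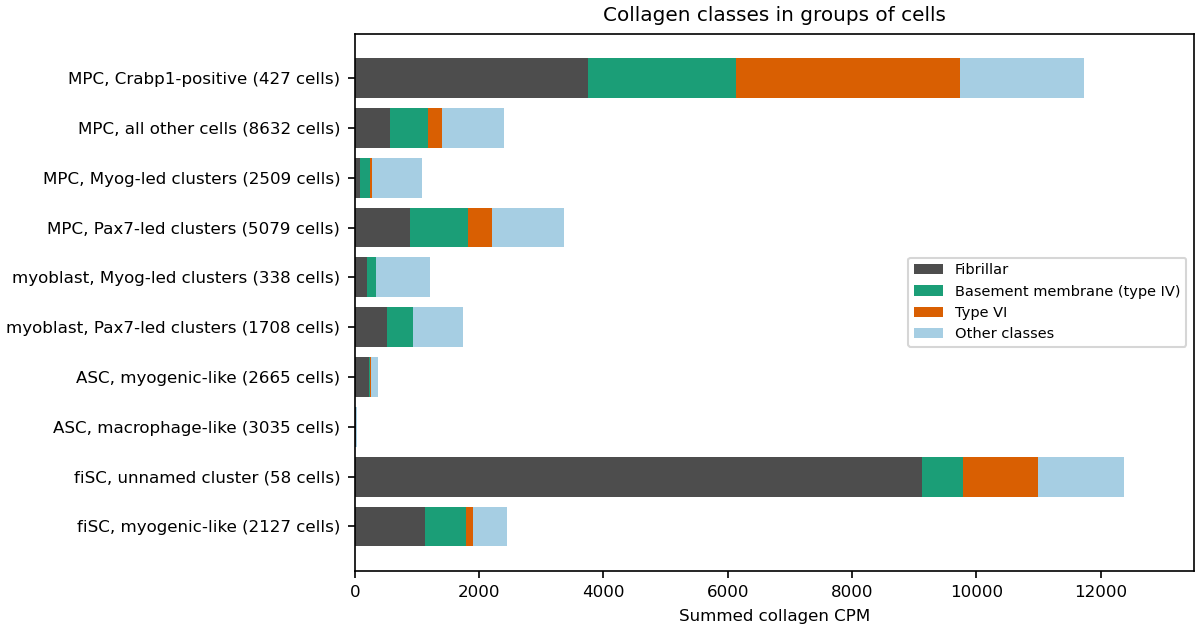
Summed CPM of fibrillar, type IV, type VI and other collagens in groups of cells of each library (stacked bars, linear axis from 0, cell numbers in brackets). Crabp1-positive MPC cells reach 11736 CPM of all collagens against 2407 CPM in other MPC cells, and macrophage-like ASC cells hold 32.5 CPM.

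Type I collagen, the main fibril of tendon and scar, is normally a trimer of Col1a1 and Col1a2 chains, and the data separated its 2 genes. Col1a1 had 35.2 CPM in MPC (34.2 to 36.2), 19.9 in myoblast (18.7 to 21.1), 9.50 in ASC (9.05 to 9.96) and 136 in fiSC (131 to 141). It was lower than in fiSC in the other libraries, with log2 ratios of -1.81 in MPC, -2.50 in myoblast and -3.28 in ASC. Col1a2 had 2.80 CPM in MPC (2.52 to 3.10), 66.7 in myoblast (64.6 to 68.9), 59.6 in ASC (58.4 to 60.7) and 105 in fiSC (100.2 to 109). The MPC level of Col1a2 was 23.8-fold lower than that of myoblast (21.4 to 26.6) and 37.4-fold lower than that of fiSC (33.5 to 41.8). Without shared barcodes the difference from myoblast was 10.9-fold (9.69 to 12.2), and in myogenic-like cells alone, at 2.93 CPM in MPC and 5.87 CPM in myoblast, both levels lay under the 10 CPM that the size rule asks for.

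Col1a1 transcripts lay largely in small clusters in every library, whereas Col1a2 transcripts did so in myoblast and fiSC but not in MPC or ASC. In fiSC, 58 cells of an unnamed cluster, with 10 of 13 fibroblast markers and 12 of 12 myogenic progenitor markers detected (at least 20 CPM in the group), held 96.5% of Col1a1 UMIs (2613 of 2708) and 96.6% of Col1a2 UMIs. In myoblast, 32 cells of an unnamed cluster held 96.0% of Col1a1 and 90.9% of Col1a2 UMIs; their median depth was 51954.5 UMIs, Pax7 stood at 22.6 CPM, and 21 of the 32 had a barcode also found in MPC. In ASC, 12 fibroblast-like cells held 90.0% of Col1a1 but 14.6% of Col1a2 UMIs, and the 2665 myogenic-like cells held 83.5% of Col1a2 UMIs. In MPC, the fibroblast-like cluster of 393 cells held 80.8% of Col1a1 and 2.93% of Col1a2 UMIs. Without shared barcodes the myoblast levels were 13.2 CPM for Col1a1 and 29.8 CPM for Col1a2.

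Within myogenic-like cells Col1a1 was low in every library, at 7.82 CPM in MPC, 0.698 in myoblast, 0.637 in ASC and 5.00 in fiSC. Col1a2 in the same cells had 2.93 CPM in MPC, 5.87 in myoblast, 70.0 in ASC and 3.74 in fiSC. Activated satellite cells of injured muscle therefore carried Col1a2 nearly without Col1a1. The ASC to fiSC ratio of Col1a2 in myogenic-like cells was 18.7 (14.8 to 24.0), or 3.10 on the log2 scale, whereas over whole libraries the log2 ratio was -0.76. In ASC myogenic-like cells 81 UMIs of Col1a1 stood beside 8901 of Col1a2, so that Col1a1 was 0.902% of the pair (0.717 to 1.12). The pair stood at 885 and 332 UMIs in MPC myogenic-like cells, 36 and 303 in myoblast, and 95 and 71 in fiSC. With each cell thinned to 2000 UMIs, Col1a2 was found in 13.6% of ASC myogenic-like cells (12.3 to 14.9) and in 0.696% of macrophage-like cells, which should lack it. The unthinned shares were 72.7% and 3.76%, at median depths of 47999 and 15873 UMIs, and thinning left out 14 and 17 cells. Fibroblast markers in ASC myogenic-like cells summed to 49.1 CPM with 1 of 13 detected.

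**Figure D3:**
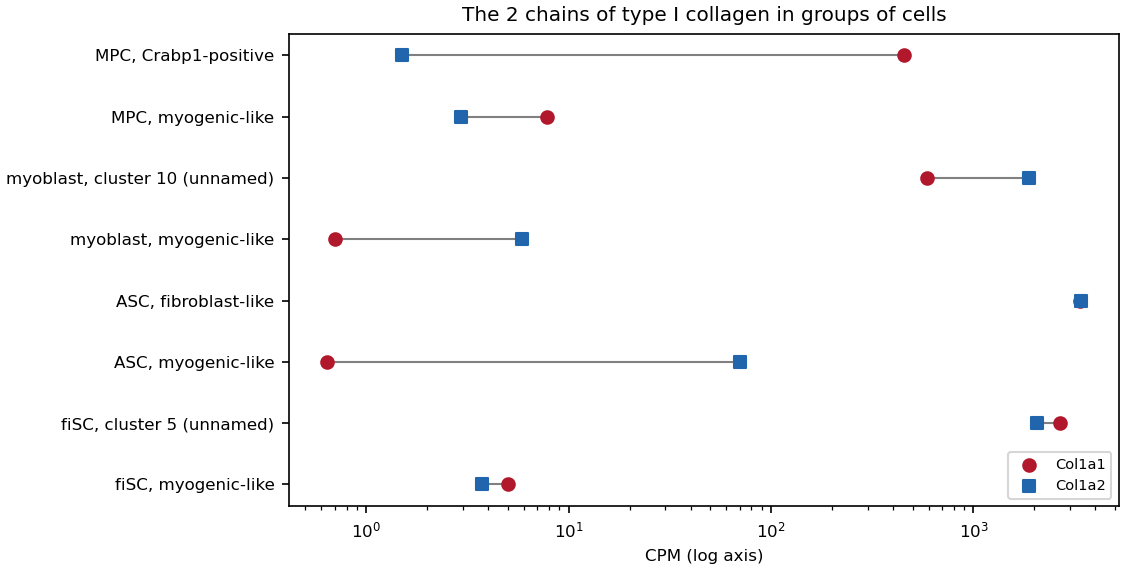
Col1a1 and Col1a2 levels (CPM, log axis) in cell groups of each library, 1 point per gene and group joined by a line. Both chains are high in the 12 ASC fibroblast-like cells (3346 and 3399 CPM), while ASC myogenic-like cells hold 0.637 CPM of Col1a1 and 70.0 CPM of Col1a2.

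The Col1a2 promoter is shown because that gene alone of the pair was high in ASC myogenic-like cells. It is the RefSeq window of 250 bases before to 50 after the start, at chr6:4505368-4505667 on the plus strand of GRCm38.p6, a different build from the one the counts were made on. Capitals mark 3 core promoter motifs on either strand, which did not overlap one another here: the TATA box (searched as TATAAA), the CCAAT box (searched as those letters) and the GC box (searched as GGGCGG).
Col1a2: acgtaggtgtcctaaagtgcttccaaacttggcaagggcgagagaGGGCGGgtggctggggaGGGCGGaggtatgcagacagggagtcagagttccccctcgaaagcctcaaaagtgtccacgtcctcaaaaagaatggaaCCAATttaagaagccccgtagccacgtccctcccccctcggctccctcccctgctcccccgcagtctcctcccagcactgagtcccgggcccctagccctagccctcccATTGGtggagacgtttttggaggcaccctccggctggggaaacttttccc
Of 32851 such windows of all genes 13.6% held the TATA box, 37.4% the CCAAT box and 35.7% the GC box. Of 38 windows for 35 collagens, 5 held the TATA box, 13 the CCAAT box and 23 the GC box. The Col1a2 window held the CCAAT box at 2 places, the GC box at 2 and the TATA box at 0. Such a match describes the letters and is no evidence of a binding site.

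Among the other fibrillar chains, Col3a1, which forms the fine fibrils of young connective tissue, had 452 CPM in MPC, 151 in myoblast, 47.2 in ASC and 484 in fiSC. It was high in MPC and fiSC and low in ASC. MPC stood 2.99-fold above myoblast (2.93 to 3.06), and ASC was 10.2-fold below fiSC (9.95 to 10.5). Most Col3a1 UMIs lay in myogenic-like cells, with 69.4% of them there in MPC, 96.4% in myoblast, 74.5% in ASC and 71.1% in fiSC. Its level in those cells was 372 CPM in MPC, 154 in myoblast, 49.6 in ASC and 362 in fiSC.

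Type V chains nucleate fibrils and set their width. Col5a1 had 135 CPM in MPC, 45.6 in myoblast, 5.79 in ASC and 108 in fiSC. Its usual partner Col5a2 had 74.9 CPM in MPC, 243 in myoblast, 66.8 in ASC and 539.7 in fiSC. The pair moved apart: against myoblast, MPC was higher for Col5a1 (log2 1.47) and lower for Col5a2 (log2 -1.64). The UMIs of Col5a1 per UMI of Col5a2 came to 1.80 in MPC, 0.188 in myoblast, 0.0866 in ASC and 0.201 in fiSC, and in myogenic-like cells alone they came to 1.83, 0.171, 0.0693 and 0.179 in the same order of libraries. Col5a3, the other type V chain, had 62.5 CPM in MPC, 4.34 in myoblast, 8.97 in ASC and 116 in fiSC, and was 14.4-fold higher in MPC than in myoblast (12.6 to 16.4). That is, myoblast and ASC were the low libraries for Col5a3. In MPC 39.9% of its UMIs lay in fibroblast-like cells, and in myoblast 61.6% lay in 32 cells of an unnamed cluster. Between myogenic-like cells Col5a3 had 43.1 CPM in MPC and 112 CPM in fiSC. That log2 ratio of -1.29 passed the size rule on the lower side.

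The developmental fibrillar chains were lower. Col24a1 had 11.4 CPM in MPC, 15.4 in myoblast, 0.720 in ASC and 0.651 in fiSC, so that the cultures were higher than the sorted cells. Its MPC level was 8.83 CPM in myogenic-like cells and 8.65 CPM without Crabp1-positive cells. Both lie under the 10 CPM that the size rule asks for, so MPC against fiSC did not pass there. Col27a1, a cartilage fibril chain, showed another order, with 4.25 CPM in MPC, 6.25 in myoblast, 5.40 in ASC and 29.2 in fiSC. The cartilage chains Col2a1, Col11a1 and Col11a2 stayed under 10 CPM, with highest levels of 0.100 CPM in fiSC, 2.13 CPM in myoblast and 1.10 CPM in fiSC.

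Type IV collagen was the class with the widest gap between ASC and fiSC. Col4a1 and Col4a2 encode the chains of its ubiquitous trimer, 2 Col4a1 chains with 1 Col4a2 chain, from a shared promoter region. Col4a1 had 441 CPM in MPC, 257 in myoblast, 6.19 in ASC and 476 in fiSC. Col4a2 had 261 CPM in MPC, 155 in myoblast, 3.96 in ASC and 169 in fiSC. Both were low in ASC, and over whole libraries with all retained cells each lay within 2-fold across MPC, myoblast and fiSC. Without shared barcodes Col4a1 passed the size rule on the lower side in myoblast against fiSC, at 235 and 476 CPM. In myogenic-like cells alone it passed there as well, at 223 CPM in myoblast and 479 CPM in fiSC. Col4a2 did not pass in myoblast against fiSC in either case. ASC was 76.9-fold below fiSC for Col4a1 (72.3 to 81.9) and 42.6-fold below it for Col4a2 (39.3 to 46.3). The gap was larger among myogenic-like cells, where Col4a1 had 2.50 CPM in ASC and 479 CPM in fiSC, a ratio of -6.01 on the log2 scale. In ASC 24 cells of an unnamed cluster with 8 of 8 endothelial markers detected stood at 2059 CPM of Col4a1.

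The 2 genes lie head to head, and their windows are shown because they moved together across libraries. The Col4a1 window is chr8:11312777-11313076 on the minus strand and the Col4a2 window chr8:11312555-11312854 on the plus strand of GRCm38.p6, from RefSeq. The starts lie 21 bases apart and the windows share 78 bases, with capitals as for Col1a2. On this annotation the minus-strand Col4a1 start has the higher coordinate, so the bases before each start lie past the start of the other gene. Motifs marked there thus fall within the span of the other gene.
Col4a1: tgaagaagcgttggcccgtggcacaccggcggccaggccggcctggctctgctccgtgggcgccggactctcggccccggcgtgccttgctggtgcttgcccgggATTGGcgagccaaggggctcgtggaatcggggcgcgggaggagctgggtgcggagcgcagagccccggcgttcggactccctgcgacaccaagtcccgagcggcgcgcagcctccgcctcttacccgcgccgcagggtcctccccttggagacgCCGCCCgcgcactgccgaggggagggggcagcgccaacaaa
Col4a2: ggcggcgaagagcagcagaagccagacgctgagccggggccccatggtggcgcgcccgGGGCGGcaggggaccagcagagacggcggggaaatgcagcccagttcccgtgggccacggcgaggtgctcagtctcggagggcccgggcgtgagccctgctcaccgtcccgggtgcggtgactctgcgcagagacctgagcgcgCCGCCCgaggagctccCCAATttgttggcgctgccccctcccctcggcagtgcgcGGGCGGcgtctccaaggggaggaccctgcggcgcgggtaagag
The Col4a1 window held the CCAAT box at 1 place and the GC box at 1, and the Col4a2 window held the CCAAT box at 1 and the GC box at 3, 1 GC box of each window being the same bases in the shared stretch. UMIs of Col4a1 per UMI of Col4a2 came to 1.69 in MPC, 1.66 in myoblast, 1.56 in ASC and 2.82 in fiSC. The ratio in the cultures and ASC was thus below that of fiSC, although the levels in ASC were far lower. In myogenic-like cells alone the ratios were 1.59 in MPC, 1.59 in myoblast, 1.07 in ASC and 2.89 in fiSC. For ASC those cells held 318 of 1108 Col4a1 UMIs and 298 of 709 Col4a2 UMIs. The other chains, Col4a3 to Col4a6, which form the basement membranes of kidney and other tissues, stayed under 10 CPM. Their highest levels were 0.696 CPM for Col4a3 in myoblast, 8.96 CPM for Col4a4 in fiSC, 8.12 CPM for Col4a5 in myoblast and 3.85 CPM for Col4a6 in fiSC.

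Type VI collagen set MPC apart from myoblast, and all 4 measured chains were higher in MPC. Its filaments are built from Col6a1, Col6a2 and 1 partner chain, Col6a3 or a relative such as Col6a6. Col6a1 had 127.5 CPM in MPC, 3.63 in myoblast (2.21 without shared barcodes), 2.35 in ASC and 95.6 in fiSC. Col6a2 had 93.4 CPM in MPC, 0.403 in myoblast (0.292 without shared barcodes), 1.27 in ASC and 40.7 in fiSC. Both were high in MPC and fiSC and low in myoblast and ASC. Over myoblast, MPC was 232-fold higher for Col6a2 (153 to 370), and 320.2-fold higher without shared barcodes (191 to 586). Col6a3 had 170 CPM in MPC, 13.0 in myoblast (5.16 without shared barcodes), 2.28 in ASC and 20.9 in fiSC. Col6a6 had 56.8 CPM in MPC, 0.147 in myoblast, 0.285 in ASC and 3.20 in fiSC, and MPC alone was above 10 CPM for it. Its ratio to myoblast, 387-fold (197 to 898), rests on 8 UMIs in myoblast, of which 4 remained without shared barcodes, at 0.0836 CPM and a ratio of 680.3-fold (266 to 2497.5).

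The partner chains differed in which cells carried them. In fiSC, the 58 unnamed cells held 411 of 418 Col6a3 UMIs, and the myogenic-like cells held 7 Col6a3 UMIs beside 1518 of Col6a1. MPC myogenic-like cells had 69.4 CPM of Col6a3, against 0.368 CPM in fiSC myogenic-like cells, a ratio of 3.79 on the log2 scale. Col6a1 in the same cells was 79.6 CPM in MPC and 79.9 CPM in fiSC. Against myoblast, the myogenic-like cells of MPC were also higher for all 4 chains, with Col6a3 at 69.4 CPM in MPC and 0.698 CPM in myoblast. Col6a6 ran the other way inside MPC, with 64.5 CPM in myogenic-like cells and 3.68 CPM in fibroblast-like cells. Of the remaining chains, Col6a4 and Col6a5 reached at most 0.276 and 4.21 CPM, both in MPC.

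Collagens XV and XVIII, which carry heparan or chondroitin sulfate chains and tie the basement membrane to the interstitium, split between the states. Col15a1 had 216 CPM in MPC, 2.46 in myoblast, 1.98 in ASC and 68.3 in fiSC. It was 88.1-fold higher in MPC than in myoblast (74.3 to 105). Without shared barcodes Col15a1 had 1.69 CPM in myoblast and the ratio was 128-fold (103 to 161), and in myogenic-like cells it had 220.3 CPM in MPC against 0.194 CPM in myoblast. Col18a1, its closest relative, had 277 CPM in MPC, 239.8 in myoblast, 12.3 in ASC and 37.4 in fiSC. Here both cultures were high and both sorted libraries low, and MPC stood at 0.20 on the log2 scale against myoblast and 2.73 against fiSC.

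Of the measured transmembrane collagens, Col25a1 was high in both cultures, and Col13a1 and Col23a1 were highest in MPC. Col13a1, known at the neuromuscular junction, had 44.8 CPM in MPC, 8.50 in myoblast, 12.9 in ASC and 0.851 in fiSC, and was the collagen past the size rule on the higher side in ASC against fiSC. That ratio was 15.2-fold (9.46 to 26.1) and rests on 17 UMIs in fiSC. Col23a1 had 47.9 CPM in MPC, 1.98 in myoblast, 1.04 in ASC and 5.76 in fiSC, and MPC was 24.2-fold above myoblast (20.0 to 29.6). Col25a1, needed in the mouse for motor axons to enter muscle, had 103 CPM in MPC, 57.5 in myoblast, 0.810 in ASC and 1.75 in fiSC. MPC was 58.7-fold above fiSC for Col25a1 (42.2 to 84.3), and in the fiSC library 22 of 35 UMIs came from the 58 unnamed cells.

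The network-forming Col8a1, found in vessel walls, was low in MPC: 14.4 CPM in MPC, 209 in myoblast, 23.0 in ASC and 137 in fiSC. MPC was 14.5-fold below myoblast (13.8 to 15.2). Among collagens that decorate fibrils, Col19a1, expressed in developing muscle, had 201 CPM in MPC, 210.3 in myoblast, 23.9 in ASC and 255 in fiSC. Its level was low in ASC alone. Col12a1, which marks tension-bearing tissue, had 20.7 CPM in MPC, 9.20 in myoblast, 3.52 in ASC and 39.5 in fiSC. Fibroblast-like cells held 70.6% of its MPC UMIs, and the 58 unnamed cells 41.1% of its fiSC UMIs. Between myogenic-like cells it had 7.04 CPM in MPC and 24.5 CPM in fiSC, a log2 ratio of -1.29 past the size rule. Col16a1 had 8.27 CPM in MPC, 2.75 in myoblast (1.73 without shared barcodes), 0.307 in ASC and 11.2 in fiSC. Col26a1 had 109 CPM in MPC, 41.0 in myoblast, 2.49 in ASC and 19.9 in fiSC, and so was highest in MPC.

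The other collagens under 10 CPM were the anchoring fibril chain Col7a1 (at most 9.19 CPM, in MPC), Col8a2 (1.69 CPM, myoblast), the type IX cartilage chains Col9a1 and Col9a2 (0.451 and 0.100 CPM, both fiSC) and Col9a3 (0.787 CPM, ASC), and the growth plate chain Col10a1 (0.220 CPM, myoblast). Col14a1, a decorator of mature fibrils, reached 7.46 CPM in fiSC, where the 58 unnamed cells held 85.9% of its UMIs. The hemidesmosome chain Col17a1 reached 2.55 CPM in fiSC, Col20a1 5.57 CPM in MPC, the muscle-tendon junction chain Col22a1 0.150 CPM in fiSC and Col28a1 0.550 CPM in myoblast.

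Crabp1-positive MPC cells, those with at least 10 UMIs of the retinoic acid binding protein gene Crabp1, were set apart. They were 427 of 9059 cells, or 4.71% (4.29 to 5.17), and held 6.48% of MPC UMIs but 25.3% of MPC collagen UMIs (25.1 to 25.4). In myoblast 3 cells met that bound, in ASC 0 and in fiSC 0. Of the 427 cells, 382 lay in the fibroblast-like cluster. Inside the bound 14 cells had 10 to 14 UMIs, and outside it 30 cells had 5 to 9. Median depth was 18514 UMIs in Crabp1-positive cells and 13011 in other MPC cells. The fibroblast marker list includes Crabp1, which chose the cells and stood at 5721 CPM in them and 11.8 CPM in other MPC cells. Of the other 12 fibroblast markers, 8 were detected in Crabp1-positive cells and 1 in other MPC cells, the summed levels being 1796 and 173 CPM, with Clec3b at 0 in Crabp1-positive cells. Of 14 macrophage markers 0 were detected in Crabp1-positive cells. Muscle markers were detected as well. Of 12 myogenic progenitor markers 7 were detected, summing to 749 CPM against 2179 CPM in other MPC cells. Of 15 muscle differentiation markers 11 were detected, summing to 633 CPM against 6949 CPM. Pax7 stood at 298 CPM in Crabp1-positive cells and 696 CPM in other MPC cells. The source of these muscle transcripts was not tested.

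Of 24 collagens measured in that contrast 18 were higher and 4 lower in Crabp1-positive cells, against 11.4% of all symbols higher and 6.56% lower, with a collagen median of 2.21 and a median of -0.05 over all symbols. Type VI led: these cells held 51.9% of MPC type VI UMIs, 31.2% of fibrillar, 21.5% of type IV and 12.1% of other collagen UMIs. Col1a1 had 455 CPM in Crabp1-positive and 6.11 CPM in other MPC cells, 74.4-fold higher (68.9 to 80.5), while Col1a2 had 1.49 and 2.89 CPM. The UMIs of the type I pair were 3957 and 13 in the Crabp1-positive cells, so their type I transcripts were Col1a1 in 99.7% of cases. Col6a3 had 1754 CPM in Crabp1-positive and 60.0 CPM in other MPC cells, Col12a1 had 227 and 6.39 CPM, and Col7a1 had 116 and 1.81 CPM. Those cells also led for Col3a1, at 1997 CPM against 345 CPM in other MPC cells, and for Col4a1, at 1607 CPM against 360.5 CPM. The 4 lower members were Col19a1 (25.0 against 213 CPM), Col26a1 (15.5 against 116 CPM), Col6a6 (7.47 against 60.2 CPM) and Col13a1 (8.61 against 47.4 CPM). A symbol was measured in this contrast if either group reached 10 CPM, so some members entered only through the group where they were high. Among them were Col1a1, Col7a1 and Col12a1 on the higher side and Col6a6 and Col13a1 on the lower side. The same bound was used for all symbols. After thinning to 2000 UMIs, Col6a3 was found in 91.0% of Crabp1-positive and 8.96% of other MPC cells, and unthinned in 97.7% and 29.9%.

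**Figure D4:**
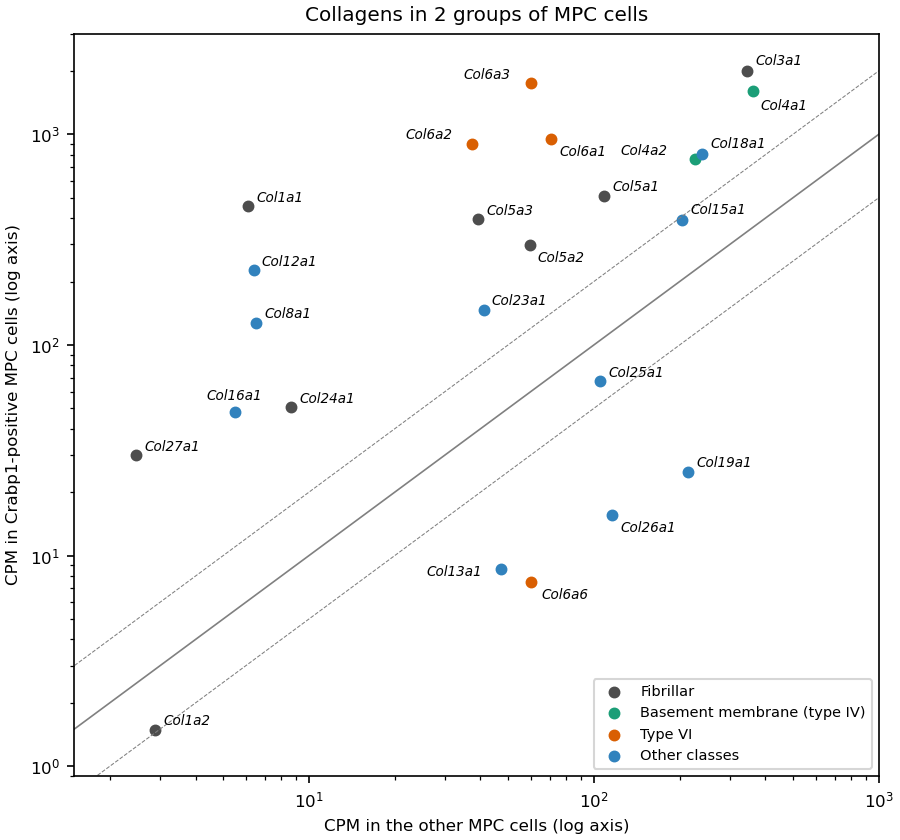
Collagen levels in Crabp1-positive (427 cells) and other (8632 cells) MPC cells, in CPM on log axes, 1 point per collagen of at least 10 CPM in any library, with a solid line at equal levels and dashed lines at 2-fold. Most points stand higher in Crabp1-positive cells, led by Col1a1 (455 against 6.11 CPM), while Col19a1, Col26a1, Col6a6 and Col13a1 stand lower by the size rule. Col1a2 and Col25a1 also lie under the line of equal levels but do not pass that rule.

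With Crabp1-positive cells left out of MPC, 11 of 21 measured collagens were higher and 4 lower than in myoblast, against 6.53% and 7.14% of all symbols. All 4 type VI chains were among the higher ones, with Col6a2 at 37.3 CPM in those MPC cells and 0.403 CPM in myoblast. Col1a1 then stood lower, with 6.11 CPM in those MPC cells and 19.9 CPM in myoblast, a log2 ratio of -1.16 in place of 0.69 with all MPC cells. Leaving out shared barcodes as well gave 6.09 CPM in those MPC cells and 13.2 CPM in myoblast, a log2 ratio of -0.71 that does not pass the size rule. Leaving out Crabp1-positive cells alone kept the 32 unnamed myoblast cells that held 96.0% of myoblast Col1a1 UMIs. Between myogenic-like cells MPC was higher for Col1a1, at 7.82 CPM against 0.698 CPM in myoblast, both under 10 CPM. In Pax7-led clusters MPC had 11.7 CPM and myoblast 0.770 CPM, a log2 ratio of 1.54 past the size rule. Against fiSC, MPC without Crabp1-positive cells had 8 of 23 collagens higher and 7 lower, against 27.5% and 16.4% of all symbols. Col6a2 then lay level, at 37.3 CPM in MPC and 40.7 CPM in fiSC, but fiSC kept its 58 unnamed cells, which held 45.0% of its Col6a2 UMIs. Between myogenic-like cells Col6a2 had 42.6 CPM in MPC and 23.5 CPM in fiSC, a log2 ratio of 0.74 that does not pass the size rule. In myogenic-like cells alone the counts were 11 higher and 2 lower of 19 for MPC against myoblast (6.41% and 6.99% of all symbols), 8 and 5 of 20 for MPC against fiSC (29.0% and 16.4%, or 45.4% either way), 3 and 10 of 17 for myoblast against fiSC (29.1% and 17.5%), and 2 and 15 of 17 for ASC against fiSC (24.3% and 23.6%).

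Both cultures hold cells that have begun to differentiate, so myogenic-like clusters were split by whether Myog, the factor of early differentiation, or Pax7 had the higher level. In MPC the Myog-led clusters (2509 cells) held 1080 CPM of collagens and the Pax7-led clusters (5079 cells) 3364 CPM. In myoblast the same sums were 1208 CPM in 338 Myog-led cells and 1743 CPM in 1708 Pax7-led cells. Unnamed clusters were outside this split, among them MPC cluster 8 (944 cells), whose Pax7 of 1249 CPM was the highest of the MPC clusters. It had 171 CPM of Col3a1, 111 CPM of Col4a1, 14.3 CPM of Col6a3 and 230 CPM of Col19a1. The Pax7-led sum of MPC therefore does not cover all cells with high Pax7. Of 21 measured collagens 2 were higher and 13 lower in Myog-led MPC clusters, against 6.47% and 11.1% of all symbols. In myoblast 2 of 13 were higher and 7 lower, against 8.26% and 15.6%. The difference between the cultures in this contrast was not tested.

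Col25a1 was among the higher members in both cultures. It had 252 CPM in Myog-led and 27.9 CPM in Pax7-led MPC clusters, and 283 CPM in Myog-led and 15.4 CPM in Pax7-led myoblast clusters. The other one was Col23a1 in MPC, at 102 CPM in Myog-led and 13.7 CPM in Pax7-led clusters, and Col13a1 in myoblast, at 27.5 CPM in Myog-led and 5.13 CPM in Pax7-led clusters. Fibril and basement membrane chains lay lower: in MPC Col3a1 had 57.2 CPM in Myog-led and 545 CPM in Pax7-led clusters, and Col4a1 had 89.6 and 561 CPM. Col6a6 followed them, with 5.68 CPM in Myog-led and 96.7 CPM in Pax7-led MPC clusters. Col19a1 stayed within 2-fold, at 169 CPM in Myog-led and 235 CPM in Pax7-led MPC clusters.

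**Figure D5:**
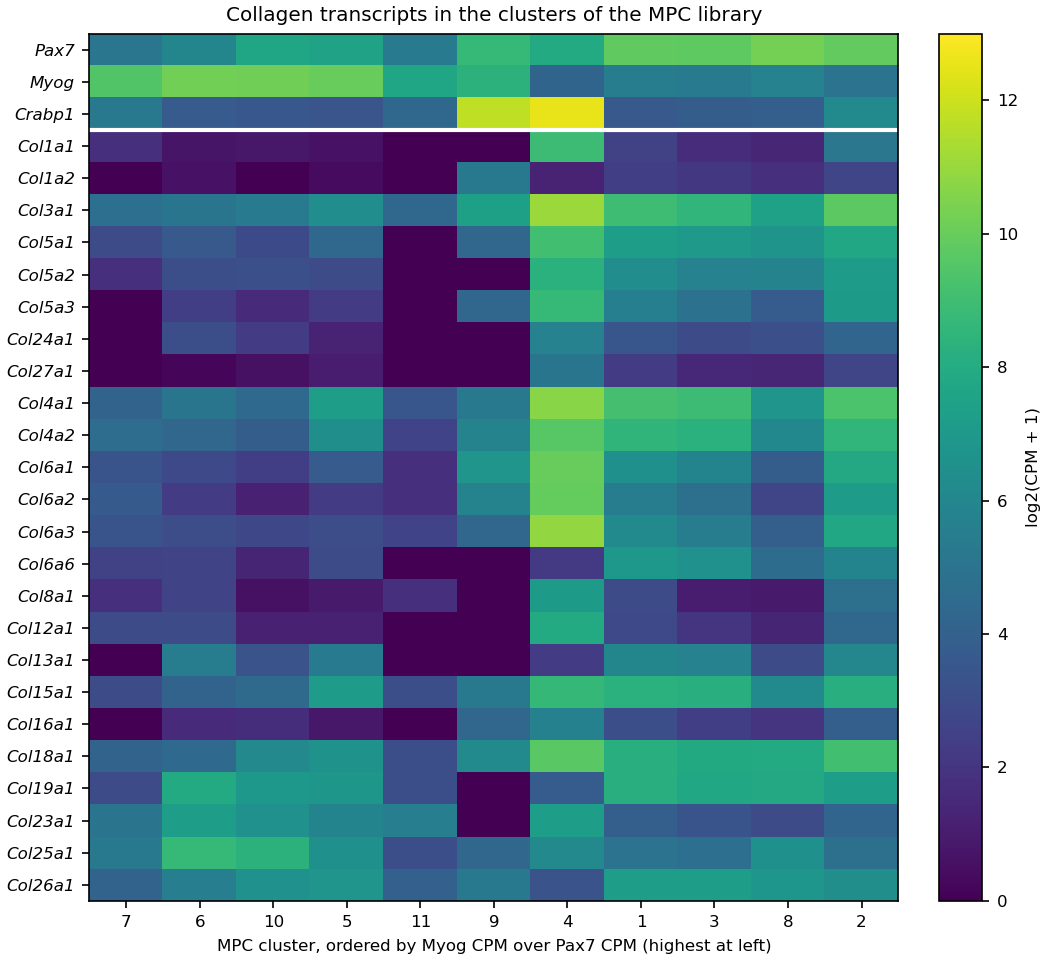
Levels of Pax7, Myog, Crabp1 and the measured collagens (rows, colour as log2 of CPM + 1) in the numbered MPC clusters (columns, ordered by Myog over Pax7 with the highest at the left). Cluster 4, the fibroblast-like cells, is the brightest column for Col1a1 at 484 CPM and Col6a3 at 1871 CPM, and is dark for Col19a1 at 12.8 CPM.

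Genes that process collagen were described from a list of 31 enzymes and helpers, and receptors from a list of 7. In MPC against myoblast 6 processing genes were higher and 2 lower of 26 measured, against 6.83% and 6.42% of all symbols, with a median log2 ratio of 0.22 and of 0.06 over all symbols. Adamts2, which trims procollagen ends, had 51.1 CPM in MPC and 8.61 CPM in myoblast, and the crosslinking oxidase Loxl2 had 106 and 25.8 CPM. On the lower side were the procollagen protease enhancer Pcolce2, at 9.02 CPM in MPC and 69.75 CPM in myoblast, and Adamts14, at 23.1 and 51.8 CPM. Of 4 measured receptors, the collagen-binding integrin chain Itga1 (log2 1.41) and the uptake receptor Mrc2 (1.04) were higher, Ddr1 was lower (-1.09) and Ddr2 stood at -0.21. Mrc2 did not pass the size rule without Crabp1-positive MPC cells, although it did in myogenic-like cells alone.

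In MPC against fiSC 10 processing genes were higher and 5 lower of 26, against 27.9% and 15.8% of all symbols, with a median of 0.70 and of 0.35 over all symbols. Adamts2 had 51.1 CPM in MPC and 9.06 CPM in fiSC, and the lysyl hydroxylase Plod1 had 46.6 and 7.91 CPM. The prolyl hydroxylase P3h2, at 1.85 CPM in MPC and 34.8 CPM in fiSC, and Pcolce2, at 9.02 and 63.3 CPM, were lowest. In myoblast against fiSC 8 were higher and 5 lower of 26, near the 27.7% and 17.8% of all symbols, with a median of 0.23 and of 0.30 over all symbols. The ends were Adamts14 (log2 2.65), the oxidase Loxl3 (1.72), Loxl2 (-2.58) and the prolyl hydroxylase P4ha1 (-2.32). In ASC against fiSC 1 was higher and 11 lower of 23, against 24.6% and 21.0% of all symbols, with a median of -0.93 and of 0.08 over all symbols. The higher one was Ppib, a general folding isomerase, at 563 CPM in ASC and 191 CPM in fiSC. Plod1 came next at 0.94, and lowest were Loxl2, at 15.7 CPM in ASC and 179 CPM in fiSC, and Lox, at 2.61 and 47.3 CPM. In myogenic-like cells alone 3 were higher (Ppib, Fkbp10 and Adamts14) and 9 lower of 22, against 24.3% and 23.6% of all symbols. The median there was -0.81, and 0.03 over all symbols.

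The fibrillar collagen receptor Ddr2 had 105 CPM in MPC, 122 in myoblast, 76.9 in ASC and 598 in fiSC, and passed the size rule against fiSC on the lower side in MPC, myoblast and ASC. Mrc2 had a log2 ratio of 0.63 in MPC, -0.41 in myoblast and -2.47 in ASC, each against fiSC. Ddr1 stood at -0.74, 0.34 and -1.07 in the same comparisons, and Itga1, measured in the MPC comparison, at 0.74. In myogenic-like cells alone Ddr1 did not pass the size rule in ASC against fiSC, whereas Ddr2 and Mrc2 did, on the lower side. In Crabp1-positive against other MPC cells 15 processing genes were higher and 0 lower of 25, against 11.4% and 6.56% of all symbols, with a median of 1.09 and of -0.05 over all symbols. Adamts2 had 414 CPM in Crabp1-positive and 26.0 CPM in other MPC cells, Loxl3 had 86.5 and 5.93 CPM, and at the low end Plod2 had 64.6 and 84.4 CPM and P3h4 44.6 and 32.9 CPM. Of 4 receptors there, Ddr2 (1.23), Itga1 (1.21) and Mrc2 (1.13) were higher and Ddr1 (-1.15) lower.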

How the data were processed

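Per the labels' protocols, all libraries were made with the Chromium 3′ v3.1 kit. The authors deposited raw UMI counts per gene and barcode, and STAR 2.7.10b and GRCm39 are named in the submitters' processing notes. From these counts, cells with at least 1000 UMIs, 500 genes and at most 10% mitochondrial UMIs were kept. Scrublet (scanpy 1.11.5) was used to call doublets. The automatic threshold marked 4.37% of ASC cells and under 0.5% elsewhere (0.0101% of MPC, 0.290% of myoblast and 0.222% of fiSC), so in those 3 libraries the highest scores were removed at 0.8% per 1000 cells (8.45%, 2.53% and 2.93%), a rule chosen after seeing the thresholds. UMIs were summed per library or cell group and scaled to CPM; all 4 groups have 1 library, so there was no test. Cells were clustered per library without collagen genes (Leiden, resolution 0.5) and named from marker lists. Clusters stayed unnamed where markers of another list were as well detected or led more often, or where under 3 markers were detected. So did clusters of low UMIs with no marker of their list among their leading genes. The naming rule and the Pax7-led and Myog-led split were set after the data were seen.

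Every collagen of at least 10 CPM was to be named with its level in each library, the others by their highest level, and of the processing and receptor lists the 2 highest and 2 lowest ratios. Members and lists were chosen with earlier results of these data known. Alternatives changed the pseudocount, level filter, cell filter, doublets, scaling (TMM in edgeR 4.0.16), cells used, Crabp1 bound, clustering and shared barcodes. Sequences came from RefSeq windows on GRCm38.p6, and coordinates of the counts' build were not used here.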

Additional observations from a re-analysis of the deposited data

How the results depend on the processing

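Of 1005 member ratios recomputed under the alternatives 940 stayed on their side of the size rule, in the same direction where past it, 40 kept the direction but no longer passed, 17 newly passed and 8 reversed. With myogenic-like cells only, the reversed log2 ratios were Col1a1 in MPC against fiSC (0.36), Col1a2 in ASC against fiSC (3.10) and Col6a3 in ASC against fiSC (0.085). With Pax7-led clusters only, Col1a1 (0.74) and Col1a2 (0.10) reversed in MPC against fiSC. Among the 6 ratios that newly passed with those clusters were Col4a1 (1.14) and Col4a2 (1.13) in MPC against myoblast. Col4a2 in MPC against fiSC (1.07) was another of them. With Crabp1-positive cells left out of MPC and the other library unchanged, Col1a1 in MPC against myoblast (-1.16) and Col6a2 in MPC against fiSC (-0.11) reversed. At the strict cell filter (2000 UMIs, 1000 genes, 5% mitochondrial), which left 499 myoblast cells, Col1a2 in myoblast against fiSC reversed (1.07), and that comparison had 5 higher and 7 lower members. At a minimum of 50 CPM, fewer members were measured, and 9 passed in myoblast against fiSC and 11 in ASC against fiSC, in place of 14 and 19. The Crabp1-positive share of MPC collagen UMIs was 26.4% at 5 UMIs of Crabp1, 24.4% at 20, 26.8% with all barcodes, 24.8% at the strict filter and 27.3% with doublets kept. Clusters made with collagen genes gave 2522 CPM of collagens in MPC myogenic-like cells in place of 2557, and no fibroblast-like MPC class. The causes were not tested. TMM scaling moved the median of all symbols to 0.23 in MPC against fiSC and to 0.33 in ASC against fiSC, where 64.0% rather than 53.9% of the symbols past the rule were then higher; the collagen counts were 9 higher and 5 lower in MPC against fiSC and did not change in the other 3 comparisons. The alternatives on shared barcodes (alone or with Crabp1-positive cells left out) and on Pax7-led clusters were chosen after seeing the data. No paired analysis was possible because each group has 1 library and no replicate numbers to pair beyond the first.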

Other observations

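Collagen levels differed among the myogenic-like clusters of fiSC. Col3a1 had 725 CPM in cluster 1 (409 cells, Pax7 at 1655 CPM) and 192, 376 and 241 CPM in clusters 2, 3 and 4. Col19a1 had 312, 423, 349 and 92.5 CPM in clusters 1 to 4, cluster 4 (764 cells, Pax7 at 381 CPM) being the low one. Col8a1 had 14.2, 108, 43.6 and 220.1 CPM in the same clusters, so that it was lowest where Pax7 was highest.

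In ASC, 232 myogenic-like cells of cluster 8 had Pax7 at 407 CPM and 1864 CPM of collagens, against 316 CPM in the whole library. Their Col1a2 stood at 477 CPM, against 48.1 CPM in the remaining ASC cells, their Col5a3 at 158 against 4.88 CPM, their Col8a1 at 189 against 18.4 CPM and their Col19a1 at 123 against 21.2 CPM. They held 21.4% of the library's Col1a2 UMIs but 2.94% of its Col1a1 UMIs. Fibroblast markers in these cells summed to 224 CPM with 3 of 13 detected, and macrophage markers to 311 CPM with 4 of 14 detected; their part in these levels was not tested.

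The 24 ASC cells with endothelial markers stood at 2059 CPM of Col4a1, 1069 CPM of Col4a2, 323 CPM of Col18a1 and 227 CPM of Col15a1. In MPC, 1313 myogenic-like cells of cluster 2 had 4321 CPM of collagens and 221 CPM of Col6a3, with Crabp1 at 72.2 CPM and fibroblast markers summing to 363 CPM. Of the 427 Crabp1-positive cells 30 lay in this cluster, and their part in these levels was not tested.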
